A study of Mus musculus with 4 samples.

Results

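The DNA replication and S phase genes described here were 49 protein-coding genes chosen by their known function, with earlier results of these data known. All 49 were found among the 55359 gene identifiers in the count table and tested among the 14637 genes with enough reads. They were measured by bulk RNAseq in T8 cells, a cell line grown from the spontaneous preB cell acute lymphoblastic leukemia of an *Irf4*-/- mouse. *Irf4* encodes IRF4, a transcription factor of the interferon regulatory factor family that promotes preB cell differentiation. T8 cells were transduced with a retrovirus (RV) coding for GFP alone (EV-RV, the empty vector control) or for GFP plus IRF4 (IRF4-RV), and viable cells were collected a day later. Each group held 2 libraries. Both groups therefore shared the *Irf4*-/- genotype, the leukemic background and the transduction, and they differed in the IRF4 coding sequence. T8 is 1 tumor line, so the values describe this line and not *Irf4*-/- leukemia as a whole, and the line was established on ST2 stromal cells with IL-7. Whether the replicates came from separate cultures was not stated, so p-values measure the spread between these libraries, which may be technical.

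A cell copies its genome once per division. Origins are licensed in G1 phase when ORC, CDC6 and CDT1 load the MCM helicase onto DNA. At the G1/S transition, cyclin E with CDK2 and the E2F transcription factors turn on the replication program, and CDC45 and GINS join MCM to form the active helicase. Primase and DNA polymerases α, δ and ε then synthesize the new strands, δ and ε together with the PCNA clamp. Ribonucleotide reductase and related enzymes supply the nucleotides. Large preB cells are among the most rapidly cycling cells of B lymphopoiesis, driven by IL-7 and the preB cell receptor, and their exit from the cycle accompanies further differentiation.

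Many promoters of these genes carry an E2F site, a short TTT-and-GC-rich word read by E2F transcription factors, so the words TTTCCCGC, TTTGGCGC, TTTCGCGC and TTTGCCGC were searched on both strands, overlaps allowed, in RefSeq promoter windows (GRCm38.p6, 250 bases before to 50 after the start site). A window was given for 40 of the 49 members. The sequences below are shown because they hold such words in members from different steps of replication, with the words in capitals and 9 flanking bases in lower case, each read 5′ to 3′ on the strand of the gene. The sites lie at chr8:75109347-75109376 (plus strand) for *Mcm5*, chr1:128359795-128359824 and chr1:128359736-128359761 (minus) for *Mcm6*, chr11:98908004-98908029 (plus) for *Cdc6*, chr4:108579418-108579443 (plus) for *Orc1*, chrX:93632277-93632302 (minus) for *Pola1*, chr12:69228164-69228189 (minus) for *Pole2* and chr5:138171851-138171876 (minus) for *Mcm7*.
Mcm5: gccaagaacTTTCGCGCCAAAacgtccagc
Mcm6, far site: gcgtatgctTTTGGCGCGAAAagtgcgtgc
Mcm6, near site: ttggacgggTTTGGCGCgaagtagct
Cdc6: cggtggagaGCGGGAAAtcgcctggg
Orc1: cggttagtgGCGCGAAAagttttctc
Pola1: catcacaggGCGCCAAAtgcactccc
Pole2: tcggcggtgGCGCCAAAtcgcgaaca
Mcm7: gtgacgacgTTTCGCGCcaatttcgg

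In *Mcm5* and in the far site of *Mcm6*, words on opposite strands overlapped, starting 153 and 149 bases before the start site in *Mcm5* and 110 and 106 bases before it in *Mcm6*. The *Pole2* word started 10 bases after the start site and the *Cdc6* word 138 bases before it. An E2F word was found in 15 of the 40 members with a window (37.5%), against 4.82% of the 9244 genes tested with a window and 2.6% of all 27025 genes with a window. Per promoter, 32.6% of the 46 member windows held one, against 2.26% of all 32851 windows of the same length.

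Forced IRF4 expression was accompanied by lower RNA of a part of the DNA replication genes, by modest amounts. Of the 49 members, 19 fell with IRF4-RV (38.8%) and none rose, at an FDR of 0.1 in edgeR (quasi-likelihood F test, Benjamini-Hochberg correction across all genes tested). Among all 14637 genes tested, 29.7% were called, 13.7% lower and 16% higher. By role, 6 of 9 genes of polymerases and primase (66.7%) and 3 of 5 of origin licensing (60%) fell. So did 3 of 6 of the MCM helicase and 2 of 4 of G1/S control (50% each). The share was closer to that of all genes in helicase activation (1 of 6, 16.7%) and nucleotide supply (1 of 5, 20%). This also held for the clamp, its loader and RPA (2 of 9, 22.2%). The share was 33.3% in chromatin assembly (1 of 3) and 0% in Okazaki fragment maturation (0 of 2). With so few genes per role, 1 call moves a share far, and differences between roles were not tested. The largest decreases were in *Pole2*, the second subunit of polymerase ε, and *Ccne2*, cyclin E2, while the core MCM subunit *Mcm6* and the activator *E2f2* did not pass the test. The median log2 fold change over the 49 members was -0.17, against 0.0073 over all genes tested, and 42 members (85.7%) had a value below 0, against 49.2% of all genes tested. At an unadjusted p under 0.05, 23 members were lower and none higher, and DESeq2 called 16 lower and none higher.

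The members together took 0.753% and 0.754% of all counts in the EV-RV libraries and 0.621% and 0.626% in the IRF4-RV libraries. On the CPM scale (counts relative to library size, corrected with TMM factors), they summed to 7150 and 7472 CPM with EV-RV and to 6378 and 6503 CPM with IRF4-RV. The sum was thus lower in both IRF4-RV libraries than in either EV-RV library, with means of 7311 ± 228 and 6441 ± 88.5 (SD, n = 2), a difference of -11.9%. For 41 members (83.7%) the CPM of the groups did not overlap, against 61.3% of all genes tested. In bulk RNA, fewer cells in S phase and less replication RNA per cell cannot be told apart. In the plot of members by library, the IRF4-RV points lie below the EV-RV mean for most members.

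**Figure D1:**
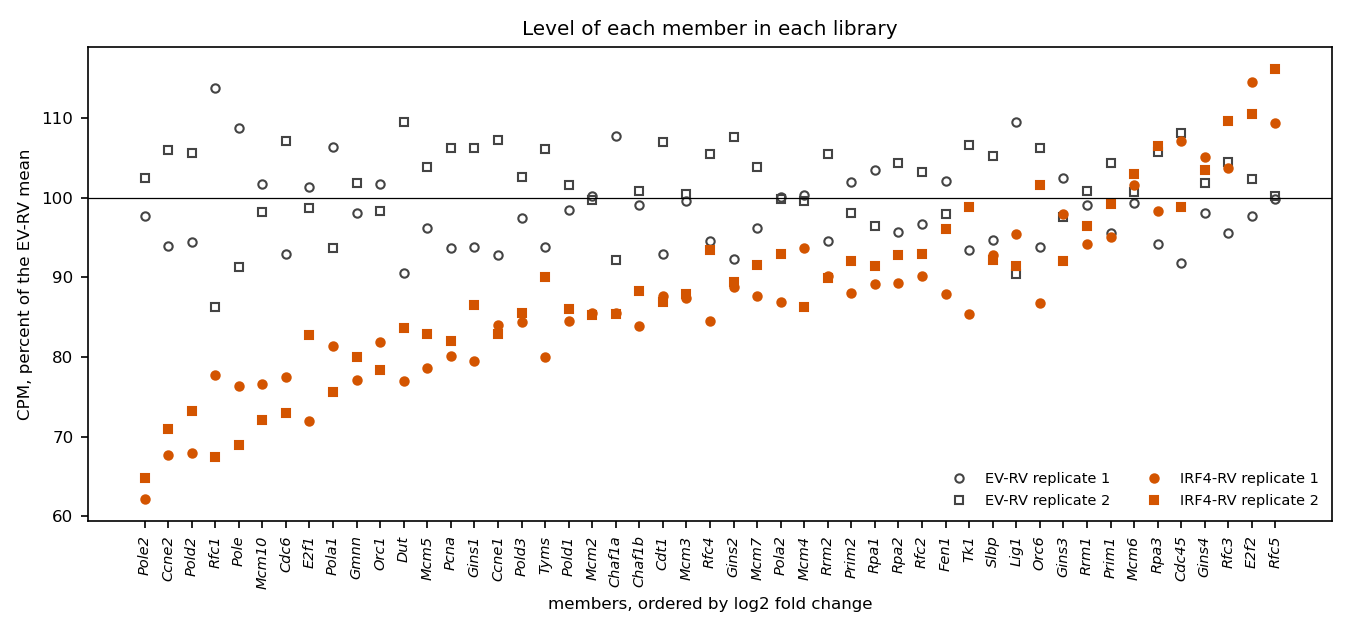
Level of each of the 49 members in each library as CPM in percent of the EV-RV mean (y axis), with members ordered by log2 fold change (x axis) and 1 point per library (2 EV-RV and 2 IRF4-RV). *Pole2* stands at the low end and *Rfc5* at the high end, and 42 members have a log2 fold change below 0.

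Total counts were between 31230223 and 37817752 per library, and 3 counts corresponded to between 0.0824 and 0.0952 CPM. Members were well covered, with between 350 and 23106 counts per library. *Irf4* itself had 8070 and 7600 counts in the EV-RV libraries and 95578 and 90693 counts in the IRF4-RV libraries (log2 fold change 3.46 ± 0.0907, SE, edgeR adjusted p = 1.145e-06), and reads of the vector and of the altered endogenous locus cannot be told apart in these gene counts. All 8 B lineage markers were detected, including *Cd79a* at between 906 and 922 CPM. Of these, the surrogate light chain genes *Vpreb1* and *Igll1*, which mark early preB cells, fell (log2 fold change -1.49 and -1.30), *Ptprc* rose (0.53), and the other 5 were not called. T and NK markers summed to between 12.7 and 20.3 CPM, nearly all of it from *Trac*, which fell (log2 fold change -0.70), and macrophage and granulocyte markers to between 0.793 and 1.15 CPM. *Cd8a*, *Cd8b1* and *Ncr1* of the former and *Adgre1*, *S100a8* and *S100a9* of the latter were at 0 counts in all 4 libraries, and 3 counts is the limit that a count of 0 allows in each. Markers of stromal cells summed to 50.6 and 95.8 CPM in the EV-RV libraries and to 50 and 236 CPM in the IRF4-RV libraries. All 7 were detected, none was called, and the sum was highest in IRF4-RV replicate 2. Without that library, fewer members were called lower, and the median log2 fold change of the members was -0.20. Mitochondrial genes took 1.98% and 2.53% of counts with EV-RV and 3.09% and 2.76% of counts with IRF4-RV. The part of these markers and of the mitochondrial share in the result was not tested.

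Compared per length (RPKM, CPM divided by exonic length in kilobases), levels of the members spanned a wide range. With EV-RV, *Pcna* was highest at 287 RPKM, followed by *Mcm3*, *Mcm5*, *Mcm6* and *Mcm7* at between 105 and 119 RPKM. *Orc1* was lowest at 3.63 RPKM, and *Gins3* and *Fen1* had 5.45 and 6.64 RPKM. The level of *Fen1* is uncertain, since 78.8% of its exonic length lies opposite *Gm10143* and the strand setting of the counting was not stated. With the length of the longest principal transcript in place of all exonic bases, an alternative chosen after seeing the data, *Pcna* had 454 and *Orc1* 4.18 RPKM and they remained the highest and lowest. The clamp thus stood at the top of the RNA levels and the largest ORC subunit at the bottom.

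Origin licensing was among the roles with the lowest median, at -0.32 over its 5 genes, and *Cdc6*, *Gmnn* and *Orc1* fell. *Cdc6*, the loader that recruits MCM to ORC, had 43 and 49.5 CPM with EV-RV and 35.9 and 33.7 CPM with IRF4-RV. Both IRF4-RV libraries were below both EV-RV libraries (log2 fold change -0.41 ± 0.1, SE, edgeR adjusted p = 0.0229). *Orc6*, the smallest subunit of ORC, had 36.8 and 41.6 CPM with EV-RV and 34 and 39.8 CPM with IRF4-RV. Its groups overlapped (log2 fold change -0.09 ± 0.112, edgeR adjusted p = 0.638). *Gmnn*, the CDT1 inhibitor geminin, had 73.2 and 76 CPM with EV-RV and 57.5 and 59.7 CPM with IRF4-RV (log2 fold change -0.35, edgeR adjusted p = 0.0161). *Cdt1*, its target, was at -0.20 and was not called (edgeR adjusted p = 0.166). The licensing factor and its inhibitor thus both had lower values with IRF4-RV, although only *Gmnn* passed the test, and their difference was not tested. *Cdt1* was called without EV-RV replicate 1 (log2 fold change -0.30, edgeR adjusted p = 0.0533). The call of *Orc1* (log2 fold change -0.32, edgeR adjusted p = 0.0787) was lost on leaving out any 1 library, with values between -0.37 and -0.28.

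The MCM helicase, a ring of 6 subunits that unwinds DNA, showed lower *Mcm5*, *Mcm2* and *Mcm3*, and *Mcm4*, *Mcm6* and *Mcm7* did not pass the test. *Mcm5* had 451 and 486 CPM with EV-RV and 368 and 388 CPM with IRF4-RV, with no overlap (log2 fold change -0.31 ± 0.0762, SE, edgeR adjusted p = 0.0242). *Mcm6* had 521 and 528 CPM with EV-RV and 533 and 540 CPM with IRF4-RV (log2 fold change 0.03 ± 0.0686, edgeR adjusted p = 0.784). Its groups did not overlap either, but lay close together, and the 95% interval of the log2 fold change ran from -0.127 to 0.192. The difference between *Mcm5* and *Mcm6* was not tested. *Mcm2* (-0.23) and *Mcm3* (-0.19) had replicates that lay close together, at 396 and 394 CPM against 338 and 337 CPM for *Mcm2*. *Mcm7* had a log2 fold change of -0.16 and *Mcm4* of -0.15. Without IRF4-RV replicate 1, *Mcm5* (-0.29), *Mcm2* (-0.25) and *Mcm3* (-0.21) were not called, without IRF4-RV replicate 2 *Mcm2* (-0.22) and *Mcm3* (-0.19) were not, and without either EV-RV library *Mcm3* (-0.20 and -0.18) was not. *Mcm7* was called without EV-RV replicate 1 (-0.22, edgeR adjusted p = 0.0892).

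Of the 6 genes that activate the helicase, *Mcm10*, which acts in origin firing and fork stability, was lower and the other 5 were not called. *Mcm10* had 66.7 and 64.4 CPM with EV-RV and 50.2 and 47.3 CPM with IRF4-RV. Both IRF4-RV libraries were well below both EV-RV libraries (log2 fold change -0.43 ± 0.0821, SE, edgeR adjusted p = 0.00827). *Gins4*, a subunit of the GINS tetramer, had 51.9 and 54 CPM with EV-RV and 55.7 and 54.8 CPM with IRF4-RV (log2 fold change 0.06 ± 0.08, edgeR adjusted p = 0.643). The subunits of GINS lay between -0.27 (*Gins1*, edgeR adjusted p = 0.106) and 0.06, and *Cdc45* had a log2 fold change of 0.04. Without EV-RV replicate 1, *Gins1* (-0.36) and *Gins2* (-0.28) were called. *Gins2* shares 67.3% of its exonic length with *Gse1* on the opposite strand, and the strand setting of the counting was not stated, so its value is uncertain.

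The clamp, its loader and the single-strand binding protein RPA comprised 9 genes, of which *Pcna* and *Rfc1* fell. *Rfc1*, the large subunit of the clamp loader, had 56.8 and 43 CPM with EV-RV and 38.8 and 33.7 CPM with IRF4-RV. The EV-RV replicates differed from each other more than the second of them did from IRF4-RV replicate 1 (log2 fold change -0.46 ± 0.141, SE, edgeR adjusted p = 0.0511), and without EV-RV replicate 1 *Rfc1* was not called (-0.26, edgeR adjusted p = 0.218). *Rfc5*, a small subunit, had 84.1 and 84.4 CPM with EV-RV and 92.2 and 97.9 CPM with IRF4-RV, the highest log2 fold change of the 49 members (0.17 ± 0.0763, edgeR adjusted p = 0.150). Its groups did not overlap, but it did not pass the test, and 10.7% of its exonic length lies opposite *Wsb2*. *Pcna*, the sliding clamp, had 646 and 733 CPM with EV-RV and 552 and 566 CPM with IRF4-RV (log2 fold change -0.30 ± 0.0831, edgeR adjusted p = 0.0355). This value is uncertain, since the processed pseudogene *Pcna-ps2* had between 1837 and 2387 counts in the libraries against between 18697 and 23106 for *Pcna*. *Pcna* was not called without EV-RV replicate 2 (-0.21) nor without either IRF4-RV library (-0.31 and -0.32). The other clamp loader subunits *Rfc2*, *Rfc3* and *Rfc4* lay between -0.17 and 0.09 and the 3 RPA subunits between -0.15 and 0.03, and none of these was called.

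Polymerases and primase held the most calls, 6 of 9, with a median log2 fold change of -0.23. *Pole2* had 109 and 114 CPM with EV-RV and 69.4 and 72.4 CPM with IRF4-RV, 36.5% lower (log2 fold change -0.66 ± 0.0769, SE, edgeR adjusted p = 0.000869). It was the largest decrease among the 49 members, and 8.5% of its exonic length is shared with the gene model *Gm49384* on the same strand. *Pold2*, the regulatory subunit of polymerase δ, had 149 and 166 CPM with EV-RV and 107 and 116 CPM with IRF4-RV (log2 fold change -0.50 ± 0.0863, edgeR adjusted p = 0.00513). *Pole*, the catalytic subunit of polymerase ε, had 95 and 79.7 CPM with EV-RV and 66.8 and 60.3 CPM with IRF4-RV (log2 fold change -0.46 ± 0.106, edgeR adjusted p = 0.0175). *Pole2*, *Pold2* and *Pole* were called in every setting and on leaving out each library. *Prim1*, the catalytic subunit of primase, had 42.8 and 46.7 CPM with EV-RV and 42.6 and 44.4 CPM with IRF4-RV, and its groups overlapped (log2 fold change -0.04 ± 0.0891, edgeR adjusted p = 0.789). The polymerase genes of the leading and the lagging strand thus both held calls, while *Prim1*, *Prim2* (-0.15) and *Pola2* (-0.15) of the primase-polymerase α complex were not called. *Pola1* (-0.35), *Pold3* (-0.23) and *Pold1* (-0.23) fell. Each of them lost its call in at least 1 fit with a library left out: *Pola1* without EV-RV replicate 1 (-0.26) or IRF4-RV replicate 2 (-0.29), and *Pold1* and *Pold3* without EV-RV replicate 2 (-0.21 and -0.20) or either IRF4-RV library (-0.24 in each case).

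The pair that matures Okazaki fragments had no call. *Fen1*, the flap endonuclease, had 16.4 and 15.8 CPM with EV-RV and 14.1 and 15.5 CPM with IRF4-RV (log2 fold change -0.12 ± 0.105, SE, edgeR adjusted p = 0.468), and 78.8% of its exonic length lies opposite the antisense gene *Gm10143*, so its value is uncertain. *Lig1*, DNA ligase I, had 178 and 148 CPM with EV-RV and 156 and 149 CPM with IRF4-RV (log2 fold change -0.10 ± 0.1, edgeR adjusted p = 0.540). The *Lig1* groups overlapped, and the *Fen1* groups did not.

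**Figure D2:**
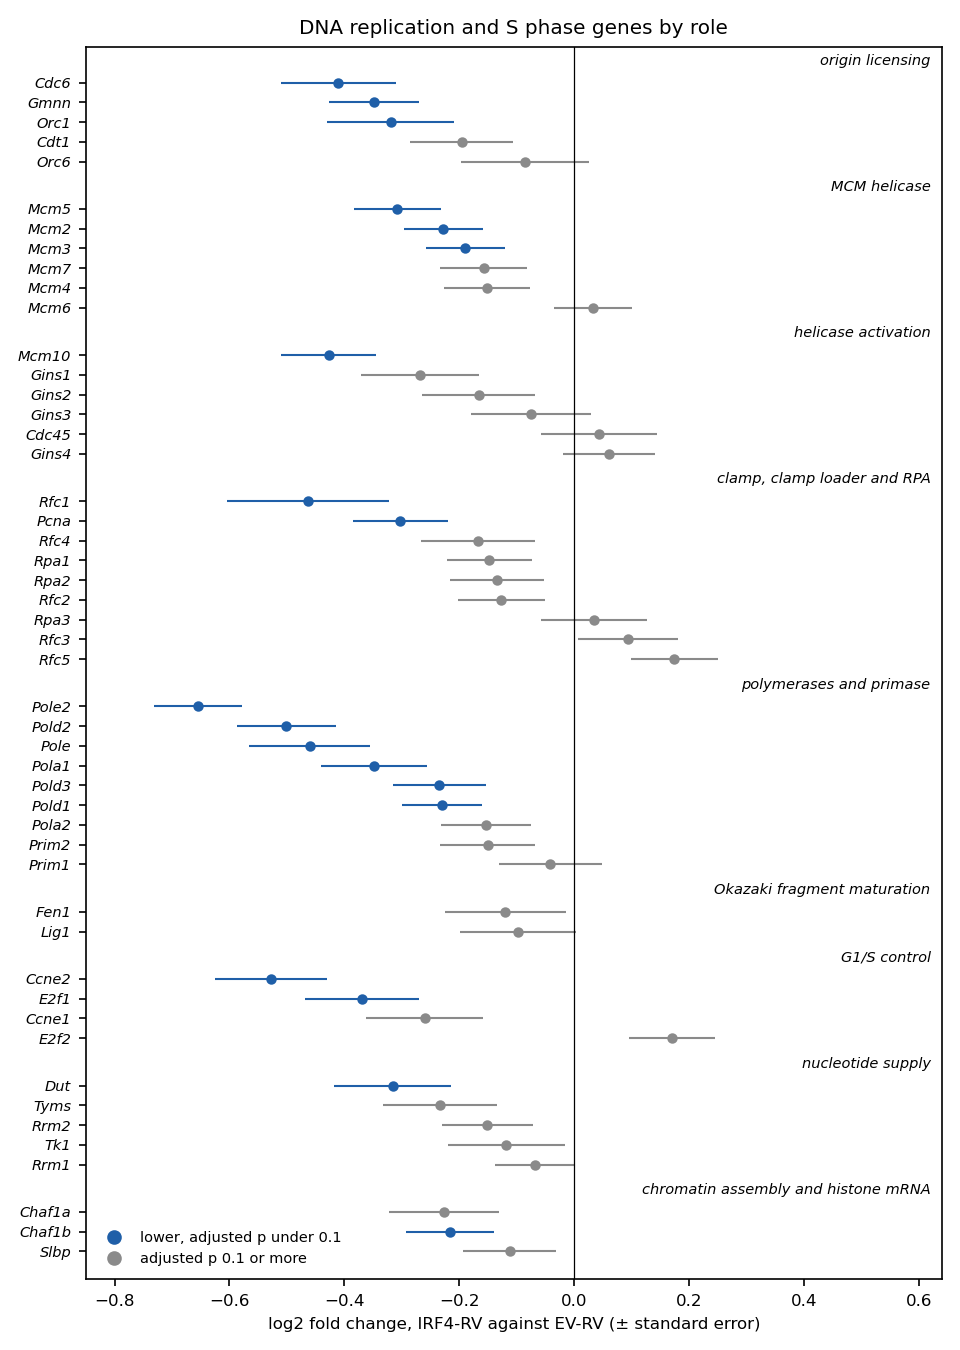
Log2 fold change of IRF4-RV against EV-RV for each of the 49 members (x axis, bars are the standard error from edgeR), grouped by role in replication, with color marking the genes past an FDR of 0.1. All 19 genes past the FDR are lower, from -0.66 for *Pole2* to -0.19 for *Mcm3*.

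Among the 4 genes of G1/S control, *Ccne2* and *E2f1* fell. *Ccne2* had 38.5 and 43.5 CPM with EV-RV and 27.7 and 29.1 CPM with IRF4-RV, 30.6% lower (log2 fold change -0.53 ± 0.0973, SE, edgeR adjusted p = 0.00693). Both IRF4-RV libraries lay well below both EV-RV libraries, and 17.4% of its exonic length lies opposite *Ints8*. *E2f2* had 117 and 123 CPM with EV-RV and 138 and 133 CPM with IRF4-RV, without overlap, and was not called (log2 fold change 0.17 ± 0.0741, edgeR adjusted p = 0.149). *E2f1* had 43.7 and 42.5 CPM with EV-RV and 31 and 35.7 CPM with IRF4-RV (log2 fold change -0.37 ± 0.0985, edgeR adjusted p = 0.0319). These 2 activator E2F genes thus had values on opposite sides of 0, and the difference between them was not tested. *E2f1* was not called without IRF4-RV replicate 1 (-0.29). *Ccne1*, cyclin E1, had a log2 fold change of -0.26 (edgeR adjusted p = 0.112) and was called without EV-RV replicate 1 (-0.37).

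Of the 5 members for nucleotide supply, *Dut* fell and the other 4 were not called. *Dut*, the dUTPase that keeps uracil out of DNA, had 228 and 276 CPM with EV-RV and 194 and 211 CPM with IRF4-RV (log2 fold change -0.32 ± 0.102, SE, edgeR adjusted p = 0.0628). The EV-RV replicates were far apart, and *Dut* was not called without EV-RV replicate 2 (-0.17) or IRF4-RV replicate 1 (-0.28). *Rrm1*, the large subunit of ribonucleotide reductase, had 464 and 472 CPM with EV-RV and 441 and 452 CPM with IRF4-RV (log2 fold change -0.07 ± 0.0691, edgeR adjusted p = 0.530). *Rrm2*, *Tyms* and *Tk1* lay between -0.23 and -0.12 and were not called, although *Rrm2* (-0.24) and *Tyms* (-0.33) were called without EV-RV replicate 1.

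Of the genes for chromatin assembly and histone mRNA, *Chaf1b*, the middle subunit of the CAF-1 histone chaperone, fell. *Chaf1b* had 83.6 and 85.2 CPM with EV-RV and 70.8 and 74.5 CPM with IRF4-RV (log2 fold change -0.22 ± 0.0769, SE, edgeR adjusted p = 0.0844), and the call was lost on leaving out any 1 library (between -0.25 and -0.20). *Chaf1a*, the large subunit, had 73.1 and 62.5 CPM with EV-RV and 58 and 57.9 CPM with IRF4-RV. Its estimate was slightly lower than that of *Chaf1b* but had a wider error (log2 fold change -0.23 ± 0.0956, edgeR adjusted p = 0.137), it was called without EV-RV replicate 2 (-0.33, edgeR adjusted p = 0.0483), and 52.5% of its exonic length lies opposite *Ubxn6*. *Slbp*, which binds the stem-loop of histone mRNA, had 124 and 138 CPM with EV-RV and 122 and 121 CPM with IRF4-RV (log2 fold change -0.11 ± 0.0807, edgeR adjusted p = 0.372).

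The number of members called depended on single libraries. Fewer members were called lower without EV-RV replicate 2 or either IRF4-RV library, and more without EV-RV replicate 1. With 1 library left out, the median log2 fold change of the members lay between -0.23 and -0.16. Over all genes tested in the same fits, the median lay between -0.021 and 0.022. The 7 genes *Cdc6*, *Gmnn*, *Mcm10*, *Pold2*, *Pole*, *Pole2* and *Ccne2* were called lower in every setting tried. Scaling by library size alone, without TMM factors, gave 36 members lower, but there the median of all genes moved to -0.083 and 37.8% of all calls were higher, against 53.8% with TMM.

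Further genes of the same or related processes, not all of them confined to S phase, were examined as lists outside the 49 members. Of 29 other replication factors tested, 10 fell (34.5%) and 1 rose (3.45%), against 13.7% and 16% of all genes tested. Their median log2 fold change was -0.18. The largest fall was that of *Chtf8*, a part of the alternative clamp loader that acts in sister chromatid cohesion, at 3.75 and 3.81 CPM with EV-RV and 2.04 and 2.01 CPM with IRF4-RV (log2 fold change -0.90 ± 0.202, SE, edgeR adjusted p = 0.0161). Its level was low, with between 69 and 125 counts per library. Exon overlaps with other genes were examined for the 49 members only, and not for *Chtf8* or the other genes of these lists.

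The E2F and RB family outside the members held calls in both directions, 5 lower (45.5%) and 2 higher (18.2%) of 11. *Rb1*, the pocket protein that restrains E2F activators, had 29.6 and 29.1 CPM with EV-RV and 50.5 and 43.6 CPM with IRF4-RV, and thus rose by 60.2% (log2 fold change 0.68 ± 0.101, SE, edgeR adjusted p = 0.00257). *Rbl2*, a pocket protein as well, also rose (0.43), while the third, *Rbl1*, was not called (0.10). *E2f3*, an activator like E2F1, fell (log2 fold change -0.44, edgeR adjusted p = 0.0348), as did the repressors *E2f6* (-0.47), *E2f8* (-0.45) and *E2f4* (-0.24) and the E2F partner *Tfdp1* (-0.29). Apart from *Rb1* and *E2f3*, these genes were named after their values were seen. Of 9 other S phase cyclins, CDKs and inhibitors tested of 10 listed, 2 rose (22.2%) and 1 fell (11.1%). These shares lay near those of all genes tested, 16% higher and 13.7% lower. *Cdkn1b*, the CDK inhibitor p27, rose from 39.4 and 34.8 CPM to 57.3 and 51.2 CPM (log2 fold change 0.55 ± 0.102, edgeR adjusted p = 0.00716), while *Skp2*, the ubiquitin ligase subunit that targets p27, fell (-0.45, edgeR adjusted p = 0.00803). *Cdkn1a*, the CDK inhibitor p21, named after its value was seen, was not called (between 57.1 and 73.5 CPM in the 4 libraries).

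Among 11 other genes of nucleotide supply, 5 fell (45.5%) and 3 rose (27.3%). Those that rose were *Samhd1*, *Dck* (log2 fold change 0.61) and *Tk2* (0.57). *Dck* and *Tk2* were named after their values were seen. *Samhd1*, the enzyme that degrades dNTPs, had 59.9 and 59.6 CPM with EV-RV and 129 and 129 CPM with IRF4-RV, the largest rise in these lists (log2 fold change 1.11 ± 0.0738, SE, edgeR adjusted p = 4.711e-05). SAMHD1 is also known as an interferon-stimulated restriction factor. *Cad*, which starts de novo pyrimidine synthesis, fell from 440 and 439 CPM to 297 and 286 CPM (log2 fold change -0.59 ± 0.0697, edgeR adjusted p = 0.000891). Of 9 other genes of replication chromatin, 3 fell and none rose, among them *Uhrf1*, which recruits maintenance DNA methylation to replicated DNA (log2 fold change -0.57, edgeR adjusted p = 0.00159). Over the 69 tested genes of these lists, 24 fell (34.8%) and 8 rose (11.6%), with a median of -0.18. Among all genes tested, 13.7% were lower and 16% higher.

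Mitosis genes, given side by side, had values in the other direction. Of 26 genes of the mitotic program, 10 rose (38.5%) and none fell, against 16% higher and 13.7% lower among all genes tested. Their median log2 fold change was 0.21. *Aurka*, a kinase of the mitotic spindle, had 77.7 and 88.4 CPM with EV-RV and 109 and 113 CPM with IRF4-RV (log2 fold change 0.41 ± 0.0876, SE, edgeR adjusted p = 0.0125), and *Ccnb1*, cyclin B1, rose by 0.23 (edgeR adjusted p = 0.0587). The result depended on single libraries and on scaling. Without IRF4-RV replicate 1, many fewer mitosis genes were called, and their median log2 fold change was 0.13. With library size alone, 5 rose, and 11.9% of all genes tested were higher. The difference between the S phase and the mitosis genes as groups was not tested.

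**Figure D3:**
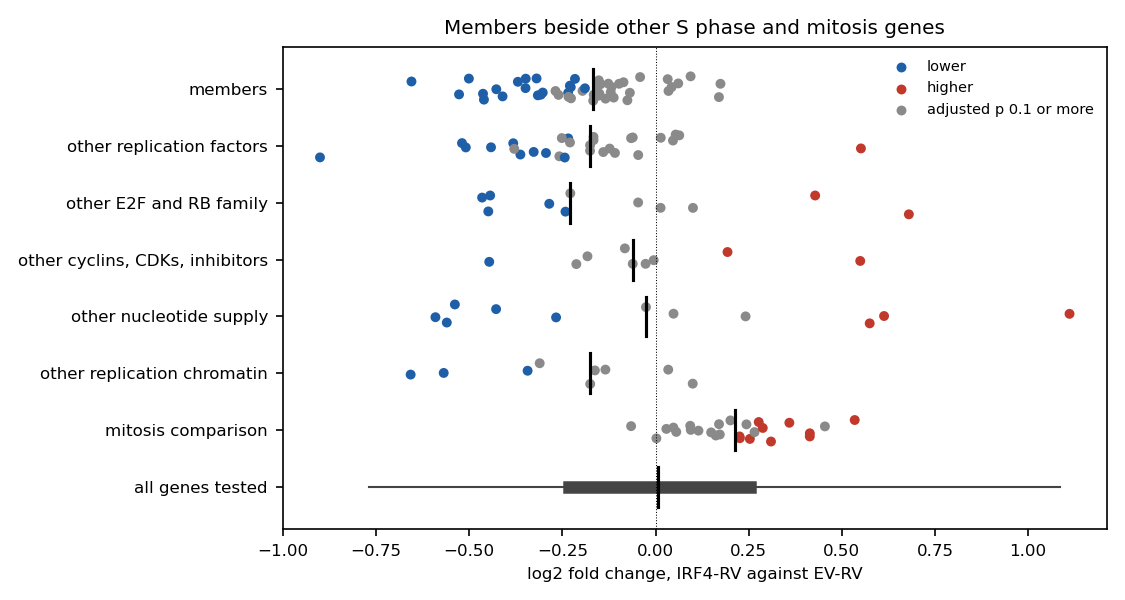
Log2 fold change of IRF4-RV against EV-RV (x axis) for each gene of the members, the other lists of related processes and the mitosis list. Rows are lists, with 1 point per gene, colored by call at an FDR of 0.1. Below, all genes tested are shown by the median, a line (5th to 95th percentile) and a thick bar (25th to 75th). The members have 19 lower and 0 higher genes, and the mitosis list has 0 lower and 10 higher.

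The promoter words were then set beside the calls. An E2F word was in 8 of the 16 members that fell and had a window (50%) and in 7 of the 24 that were not called (29.2%). The words were found for *Cdc6*, *Mcm3*, *Mcm5*, *Orc1*, *Pola1*, *Pold1*, *Pold3* and *Pole2* among those that fell, and for *Cdt1*, *E2f2*, *Gins3*, *Lig1*, *Mcm6*, *Mcm7* and *Rfc3* among the others. In the mitosis list, 1 of 23 genes with a window held an E2F word (4.35%), while 17 (73.9%) held TTTGAA, the word of the CHR element of mitotic promoters. TTTGAA, searched on both strands, was in 6 of 40 members (15%), against 14.4% of genes tested and 20.2% of all genes with a window.

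Words bound by IRF factors were searched on both strands as well. The interferon-stimulated response word GAAANNGAAA was in 1 of 40 members, *Pold2*, against 3.89% of genes tested and 3.99% of all genes with a window. The Ets-IRF composite word GGAANNGAAA was in none of the 40, against 2.85% of genes tested and 3.16% of all genes with a window. A match describes the letters in these windows alone, and binding was not measured.

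**Figure D4:**
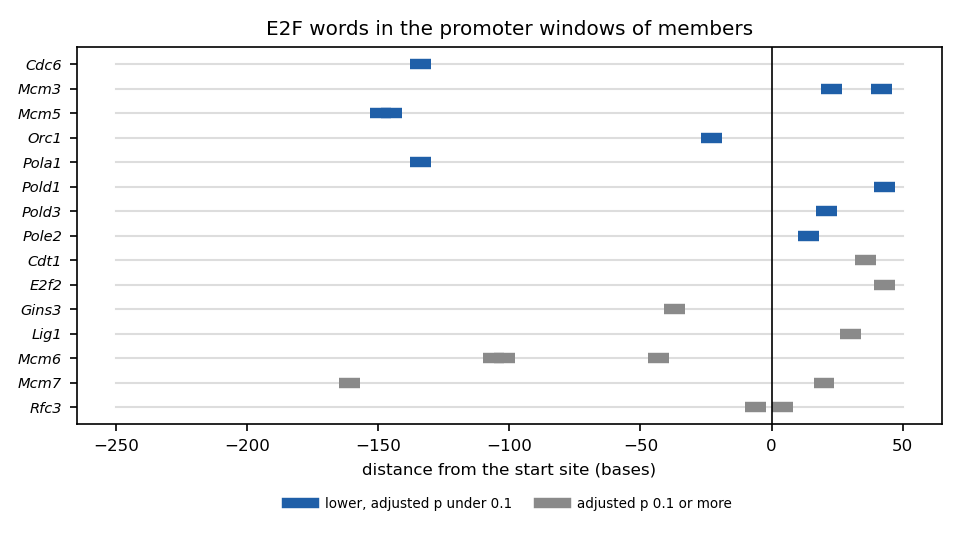
Position of E2F words (marks) in the promoter windows of the 15 members that hold one, as distance from the start site in bases (x axis, from 250 before to 50 after), with color marking members that fell at an FDR of 0.1. The words start between 165 bases before the start site (*Mcm7*) and 39 bases after it (*E2f2* and *Pold1*).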

How the data were processed

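Bulk RNAseq libraries of T8 cells, 2 per group, were grouped by their titles. One protocol in the labels mentions T11, but titles and tissue give T8, which was used. The authors aligned reads with STAR (2.4.0j) to GRCm38 and counted them with featureCounts, and deposited raw counts per gene without normalization. Settings for strand and multiply aligned reads were not given in the sources used here. Symbols, exons and coordinates came from GENCODE M21, which gave a symbol to 52083 of 55359 identifiers. Promoter windows came from RefSeq (GRCm38.p6).

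Genes passing filterByExpr were tested in R 4.3.3 with edgeR 4.0.16 (TMM, quasi-likelihood F test, Benjamini-Hochberg adjustment over 14637 genes, FDR 0.1). No replicate block was used. CPM used TMM-scaled library sizes and RPKM also the union of exons. Alternatives were DESeq2 1.42.0, other size factors, count filters, the block, an FDR of 0.05 and leaving out each library. On simulated counts for this comparison (14637 genes, 200 changed, 10 simulations), 18.5% of calls were false at the FDR of 0.1. Of the changes, 4.48%, 52.2% and 73% were recovered at 1.2-fold, 1.5-fold and 2-fold. In that setting adjusted p-values were too small and small changes were mostly missed, and both may hold for the data. Since 29.7% of genes were called in the data, far more than were changed in the simulation, these rates need not carry over.

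The members and lists were chosen with earlier results of these data known. Named with full values were the member with the highest and the lowest log2 fold change in each role, every called member at an absolute log2 fold change of at least 0.5, and a few further members for their function. In other lists, called genes at 0.7 or more were named, otherwise 1 or 2 by their role. The floor of 3 counts covers counting error only.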

Additional observations from a re-analysis of the deposited data

How the results depend on the processing

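The members' count and median kept their direction in every alternative run. Of the 49 members, 19 were lower, and this count stood between 13 and 19 with DESeq2, DESeq2 size factors, both count filters and an FDR of 0.05. Library size alone gave 36 lower members and a median log2 fold change of -0.26, since the median of all genes moved to -0.083. With the replicate block, 33 members were lower and 2 higher (*Rfc5* and *E2f2*), and 6394 of all genes were called in place of 4349. Same-numbered libraries deviated together with a correlation of 0.26 over all genes and 0.489 over the members. With 2 pairs and a shared number alone, the pairing is not established. The block made 23.9% false calls on simulated counts, but these held no difference shared by same-numbered libraries. They therefore cannot decide whether the block fits the data. Leaving out 1 library gave between 9 and 21 lower members and a median between -0.23 and -0.16, the lowest without EV-RV replicate 1. The cause of these shifts between libraries was not tested. With 2 libraries per group, most changes of 1.2-fold were missed on simulated counts, so members that were not called are not shown to be unchanged.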
